A study of Mus musculus with 12 samples.

Results

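Amino acids filtered at the glomerulus are taken back almost completely by the proximal tubule, and 10 genes of the SLC7, SLC6 and SLC3 families that encode the carriers of this route are described here in mouse kidneys with and without tubular BMAL1. They were chosen by symbol, as apical and basolateral carriers, out of 38924 gene identifiers in the count files, and all 10 passed the filter on low counts. RNA came from whole kidneys of mice on the C57BL/6J background. Knockout (KO) mice carried Bmal1lox/lox, Pax8-rtTA and LC1 Cre, so that doxycycline, given at 2 mg/ml in the drinking water for 2 weeks from 8 weeks of age, removed Arntl, the gene of the circadian transcription factor BMAL1, from cells in which the Pax8 promoter is active, that is, along the renal tubule. Wild-type (WT) animals were littermates, and the labels do not give the alleles they carried. The same doxycycline course and starting age are listed with all 12 libraries, but the labels do not say separately whether wild-type animals received it. Kidneys were collected in the light phase, at ZT4, and in the dark phase, at ZT16, where zeitgeber time (ZT) counts the hours since the light came on, with 12 h of light a day. There were 3 libraries in each of the 4 groups, and since the labels do not say that they came from separate animals, p-values reflect variation from library to library, part of which may be technical.

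Most of these carriers work as pairs of a heavy chain, which brings the complex to the membrane, and a light chain, which carries the amino acid. In the brush border, the heavy chain rBAT (Slc3a1) pairs with the light chains b0,+AT (Slc7a9) and AGT1 (Slc7a13) to take up cystine with cationic or acidic amino acids, and inherited loss of Slc3a1 or Slc7a9 causes cystinuria. At the basolateral side, the heavy chain 4F2hc (Slc3a2) pairs with y+LAT1 (Slc7a7) and LAT2 (Slc7a8), through which amino acids leave for the blood. B0AT1 (Slc6a19), the carrier lost in Hartnup disorder, and Slc6a18 take up neutral amino acids with sodium and need the accessory protein collectrin in the kidney. Slc7a12 (Asc-2) is a light chain for small neutral amino acids, and Slc7a2 (CAT2) carries cationic amino acids without a heavy chain.

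The upstream sequences of a heavy chain and of the neutral carrier that changed with both genotype and time are shown, because BMAL1 and the factors it controls act at short motifs. RefSeq promoter windows (GRCm38.p6) were at hand for 6 of the 10 genes (Slc7a7, Slc7a8, Slc7a9, Slc6a19, Slc3a1 and Slc3a2). Each sequence holds the 250 bases before an annotated start, 5′ to 3′ on the gene's strand, and capitals mark CAAAGTCCA, a motif of the nuclear receptor HNF4. The window of Slc6a19 is chr13:73692637-73692886 on the minus strand, in an intron of its longer transcripts, and that of Slc3a1 is chr17:85028097-85028346 on the plus strand.
Slc6a19: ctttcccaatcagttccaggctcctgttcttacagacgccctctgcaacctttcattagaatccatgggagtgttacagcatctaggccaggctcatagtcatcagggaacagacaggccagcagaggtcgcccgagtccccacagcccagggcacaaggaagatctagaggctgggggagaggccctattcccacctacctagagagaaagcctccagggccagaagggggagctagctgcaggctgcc
Slc3a1: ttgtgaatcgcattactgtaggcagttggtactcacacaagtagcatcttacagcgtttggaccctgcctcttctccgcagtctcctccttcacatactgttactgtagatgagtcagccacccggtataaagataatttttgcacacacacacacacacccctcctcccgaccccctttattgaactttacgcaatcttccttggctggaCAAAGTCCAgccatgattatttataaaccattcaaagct
None of the 11 windows of the 6 genes held, on either strand, the E-box CACGTG bound by BMAL1, the D-box TTATGTAA bound by DBP and its relatives, or the ROR-element core TAGGTCA. Over all genes with such windows, 6.86% had the E-box, 0.977% the D-box and 2.55% the ROR-element core. CAAAGTCCA lay 39 bases before the start of Slc3a1, and 0.451% of genes had it. That motif was added after the window had been read. These matches describe letters in short windows only.

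The libraries held 25628887 to 38043491 counts on genes. The labels could not be checked by Arntl, whose counts add up all exons and all cell types and whose log2 fold change in knockouts was -0.08 in the light phase (adjusted p = 0.777, edgeR quasi-likelihood) and 0.43 in the dark phase (adjusted p = 0.151). Nr1d1, a direct target of BMAL1, fell by 1.89 and 0.97 on the log2 scale at the same times (adjusted p = 2.80e-05 and 0.00561). KO ZT16 replicate 2 stood apart from KO ZT16 replicates 4 and 6. Its score on the first principal component (46.7% of the variance) was 43.0, where theirs were -9.73 and -11.8. WT ZT16 replicates 1, 3 and 5 scored 29.8, 25.1 and 49.0, a range that holds 43.0. On the second component (15.6%) KO ZT16 replicate 2 had the lowest score of all 12 libraries, at -34.7. Its share of mitochondrial counts was 22.3%, above the 14.1% and 14.0% of replicates 4 and 6. In WT ZT16 replicates 1, 3 and 5 that share was 18.7%, 18.8% and 22.4%. For 7 of the 10 transporters the level in KO ZT16 replicate 2 lay nearer to the WT ZT16 mean than to the mean of KO ZT16 replicates 4 and 6. The same held for 70.3% of all 16150 tested genes and for 24.3% of the 531 genes called between genotypes at ZT4. The fit behind those calls held this library too, and genes in which it strayed from its group were less likely to be called. The lower share is therefore partly set by the choice of genes and does not show where the library belongs. Counts of calls and the transporters' values at ZT16 are therefore also given without it. Proximal tubule markers were high in every library, with a summed level of 8139 to 10958 CPM (counts scaled to library size) for 7 genes and none at 0. In whole kidney, fewer cells of a type and less RNA per cell cannot be told apart.

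Scaled to exonic length, the 10 genes spanned a wide range of levels. Slc7a13 was the most abundant, at 478 ± 147 (SD, n = 12) CPM per kb of exon, followed by Slc3a1 at 341 ± 55.6 and Slc6a18 at 172 ± 24.3. Slc7a13 lay above Slc3a1 in 12 of 12 libraries, although the 2 ranges overlapped. This order depends on how reads were assigned, which is not known. Slc3a1 shares 26.5% of its exonic bases with Prepl, and reads set aside there would lower its level per length. Slc6a19 (81.2 ± 27.9) and Slc7a7 (70.0 ± 5.29) could not be ordered, since Slc6a19 was the higher of the pair in 6 of 12 libraries. Slc7a9 (60.8 ± 3.88) and Slc3a2 (47.9 ± 2.06) came next, in this order in every library. Slc7a8 (38.6 ± 9.49) lay below Slc3a2 in 8 of 12 libraries and above Slc7a12 (26.5 ± 20.7) in 9 of 12. Slc7a2 was the lowest by far, at 0.675 ± 0.332 CPM per kb.

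**Figure D1:**
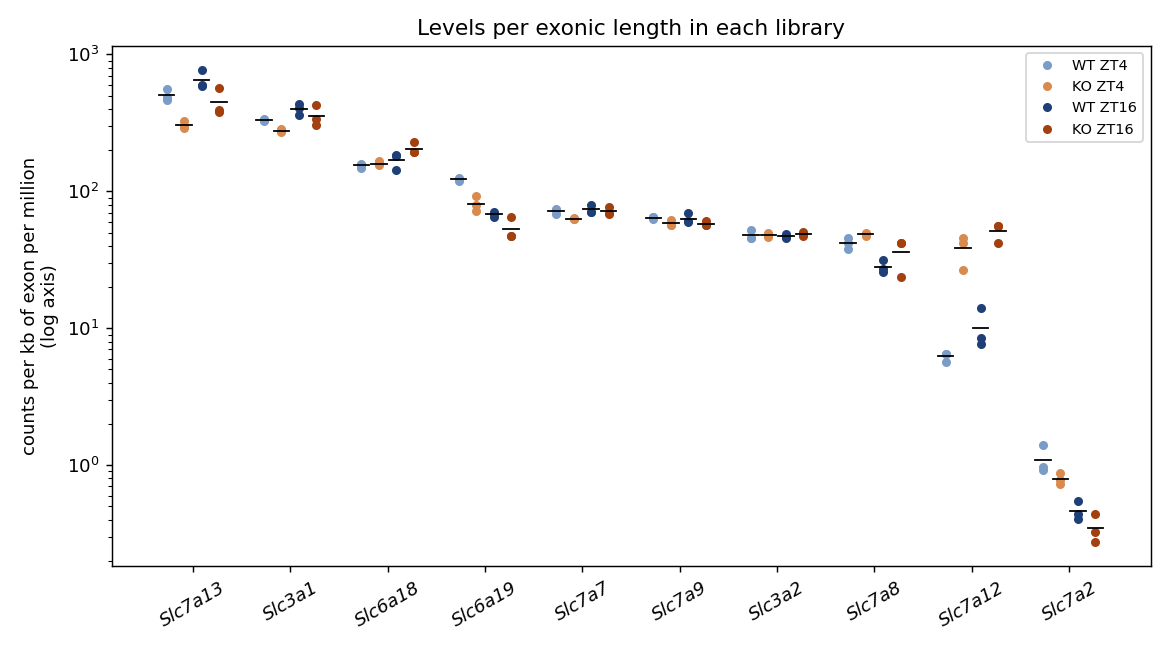
Levels of the 10 transporter genes in CPM per kb of exon, on a log axis, with 1 point per library and a bar at the mean of 3 libraries, coloured by group. Slc7a13 and Slc3a1 lie at the top, Slc7a2 lies below 2 in every library, and Slc7a12 is the gene whose groups lie farthest apart.

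In the knockouts Slc7a12 rose at both times, while Slc7a13 and Slc6a19 fell at ZT4. At ZT4, 1 of the 10 genes was called higher and 2 were called lower at adjusted p under 0.05, where 3.29% of all tested genes were called (1.63% higher, 1.66% lower). At ZT16, 1 gene was called higher and none lower, against 4.03% of tested genes, where the shares were 2.07% higher and 1.96% lower. There 4 of the 10 had an unadjusted p under 0.05 by edgeR, as had 2591 of all 16150 tested genes. DESeq2 called 2 of the 10 at ZT16, Slc7a12 and Slc7a13, and 1008 of all 16150 genes. Over both times 1 was called higher and 2 lower, against 11.4% (6.04% higher, 5.31% lower). Without KO ZT16 replicate 2, 4 of the 10 were called at ZT4 (15.3% of tested genes called), 6 at ZT16 (31.2%) and 8 over both times (42.4%). All of these were lower but Slc7a12 and, at ZT16 and over both times, Slc7a8. The median size of the log2 change was 0.24 among the 10 genes and 0.18 among all genes at ZT4, and 0.31 against 0.15 at ZT16.

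**Figure D2:**
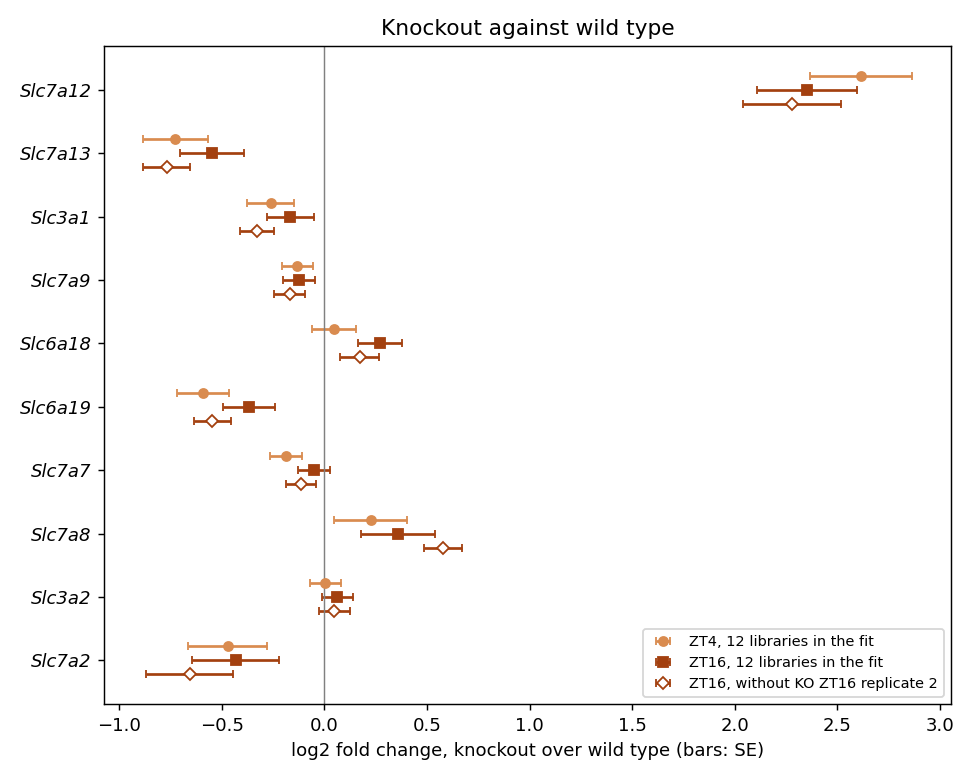
Log2 fold change of knockout over wild type for each gene, with bars of 1 SE, at ZT4 and at ZT16 in a fit of 12 libraries and at ZT16 without KO ZT16 replicate 2. Slc7a12 lies at 2.28 to 2.62 in all 3 settings. The falls of Slc7a13 and Slc6a19 at ZT16 are larger without that library.

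Slc7a12 (ENSMUSG00000039710, chromosome 3, 14480697 to 14505830, plus strand, GRCm38) was the light chain with the widest change. It measured 9.95, 11.2 and 11.4 CPM in replicates 1, 3 and 5 of WT ZT4, and the KO ZT4 replicates 2, 4 and 6 had 80.0, 46.6 and 73.1 CPM. The ZT16 libraries had 24.6, 13.3 and 14.8 CPM in wild type and 97.9, 97.8 and 73.3 CPM in knockout. Every knockout library lay above every wild-type library, also across times, and KO ZT16 replicate 2 lay with its own group. The rise was 6.13-fold at ZT4 (log2 2.62 ± 0.25 SE, adjusted p = 0.000106) and 5.11-fold at ZT16 (2.35 ± 0.24, adjusted p = 0.000123), n = 3 against 3 each by edgeR quasi-likelihood. It was 2.28 ± 0.24 at ZT16 without KO ZT16 replicate 2. The call held in all 21 alternatives tried at each time, with an adjusted p of at most 0.00161 at ZT4 and 0.00664 at ZT16.

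Slc7a13 (ENSMUSG00000041052, chromosome 4, 19818725 to 19842218, plus strand), a light chain related to it and a partner of rBAT, moved the opposite way. It measured 1002, 1199 and 1046 CPM in WT ZT4 and 622, 697 and 642 CPM in KO ZT4, without overlap. At ZT16 wild type had 1273, 1268 and 1658 CPM and knockout 1217, 813 and 841 CPM, and the 1217 belongs to KO ZT16 replicate 2. The fall was 0.73 ± 0.16 (SE) on the log2 scale, or 1.65-fold, at ZT4 (adjusted p = 0.0270). At ZT16 the log2 fold change was -0.55 ± 0.16 with an adjusted p of 0.0819, which misses the threshold, and -0.77 ± 0.12 with an adjusted p of 0.000518 without KO ZT16 replicate 2. Over both times it fell by 0.64 ± 0.11 (adjusted p = 0.00304), a call kept in all 20 alternatives. The ZT4 call was lost when any 1 of the 6 ZT4 libraries was left out (adjusted p from 0.0605 to 0.122). Per length, Slc7a13 exceeded Slc7a12 by 81.2 ± 5.97 times (SD, n = 3) in WT ZT4 and by 8.54 ± 3.16 times in KO ZT4. At ZT16 the ratios were 70.2 ± 25.3 in wild type and 8.73 ± 1.75 in knockout.

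The heavy chain of the brush border, Slc3a1 (ENSMUSG00000024131, chromosome 17, 85028376 to 85064236, plus strand), measured 743, 755 and 764 CPM in WT ZT4 and 646, 623 and 617 CPM in KO ZT4. These groups did not overlap, yet the log2 fold change of -0.26 ± 0.11 missed the threshold (adjusted p = 0.250) in the fit of 12 libraries and passed it without KO ZT16 replicate 2 (-0.26 ± 0.07, adjusted p = 0.0306). At ZT16 it measured 922, 819 and 979 CPM in wild type and 967, 763 and 693 CPM in knockout, where the high value is again replicate 2. The log2 fold change there was -0.17 ± 0.11 (adjusted p = 0.516), or -0.33 ± 0.08 (adjusted p = 0.00975) without it. Over both times the value was -0.21 ± 0.08 (adjusted p = 0.108), or -0.29 ± 0.06 (adjusted p = 0.00102) without that library. Slc3a1 shares 601 exonic bases, 26.5% of its length, with Prepl on the opposite strand. Unless strand was used in counting, reads there may have been set aside as ambiguous, and those counted may come from either gene. Prepl itself had a log2 fold change of -0.0020 in the light phase (adjusted p = 0.990) and 0.17 in the dark phase (adjusted p = 0.259).

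Slc7a9 (ENSMUSG00000030492, chromosome 7, 35448796 to 35466036, plus strand), the other partner of rBAT, varied little. It measured 172, 173 and 168 CPM in WT ZT4 against 152, 152 and 164 CPM in KO ZT4, and 184, 161 and 161 against 162, 151 and 152 CPM at ZT16. Its log2 fold changes of -0.13 ± 0.08 and -0.12 ± 0.08 did not pass the test (adjusted p = 0.370 and 0.469), nor did -0.17 at ZT16 without KO ZT16 replicate 2 (adjusted p = 0.101). Per length, the ratio of Slc7a13 to Slc7a9 was 7.90 ± 0.709 in WT ZT4 and 5.24 ± 0.426 in KO ZT4, and that of Slc7a13 to Slc3a1 was 1.52 ± 0.140 and 1.104 ± 0.0831 (SD, n = 3). Neither ratio overlapped between the genotypes at ZT4. At ZT16 the ratio to Slc7a9 overlapped, with 8.63 to 12.9 in wild type and 6.74 to 9.40 in knockout, and the ratio to Slc3a1 did not, with 1.46 to 1.80 and 1.13 to 1.34. Over both times and without KO ZT16 replicate 2, Slc7a9 fell by 0.15 ± 0.05 (adjusted p = 0.0269).

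Slc6a19 and Slc6a18, the neutral carriers of the brush border, lie next to each other on the minus strand of chromosome 13, 1722 bases apart, and differed in their behaviour. Slc6a19 (ENSMUSG00000021565, 73679745 to 73704865) measured 600.1, 613 and 629 CPM in WT ZT4 and 400.4, 359.9 and 462 CPM in KO ZT4, without overlap. At ZT16 it measured 325, 341 and 356 CPM in wild type and 323, 235 and 235 CPM in knockout, with replicate 2 just under the wild-type range. At ZT4 it fell by 0.59 ± 0.13 on the log2 scale, or 1.51-fold (adjusted p = 0.0251). At ZT16 its log2 fold change was -0.37 ± 0.13 (adjusted p = 0.159), and -0.55 ± 0.09 (adjusted p = 0.00107) without KO ZT16 replicate 2. Over both times it fell by 0.48 ± 0.09 (adjusted p = 0.00472), again in all 20 alternatives. Leaving out any ZT4 library but KO ZT4 replicate 6 took the ZT4 adjusted p to between 0.0748 and 0.131.

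Slc6a18 (ENSMUSG00000021612, 73661752 to 73678023) measured 700.3, 688 and 658 CPM in WT ZT4 and 734, 697 and 684 CPM in KO ZT4, which overlap. At ZT16 it measured 808, 635 and 804 CPM in wild type and 1008, 849.6 and 851 CPM in knockout, which do not. Its log2 fold changes were 0.05 ± 0.11 (adjusted p = 0.825) and 0.27 ± 0.11 (adjusted p = 0.223), and the latter was 0.17 ± 0.10 (adjusted p = 0.186) without replicate 2. Per length, Slc6a18 exceeded Slc6a19 by 1.26 ± 0.0694 times in WT ZT4, 1.98 ± 0.270 in KO ZT4, 2.50 ± 0.358 in WT ZT16 and 3.91 ± 0.324 in KO ZT16 (SD, n = 3). At each time the ratio was higher in every knockout library than in every wild-type library.

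**Figure D3:**
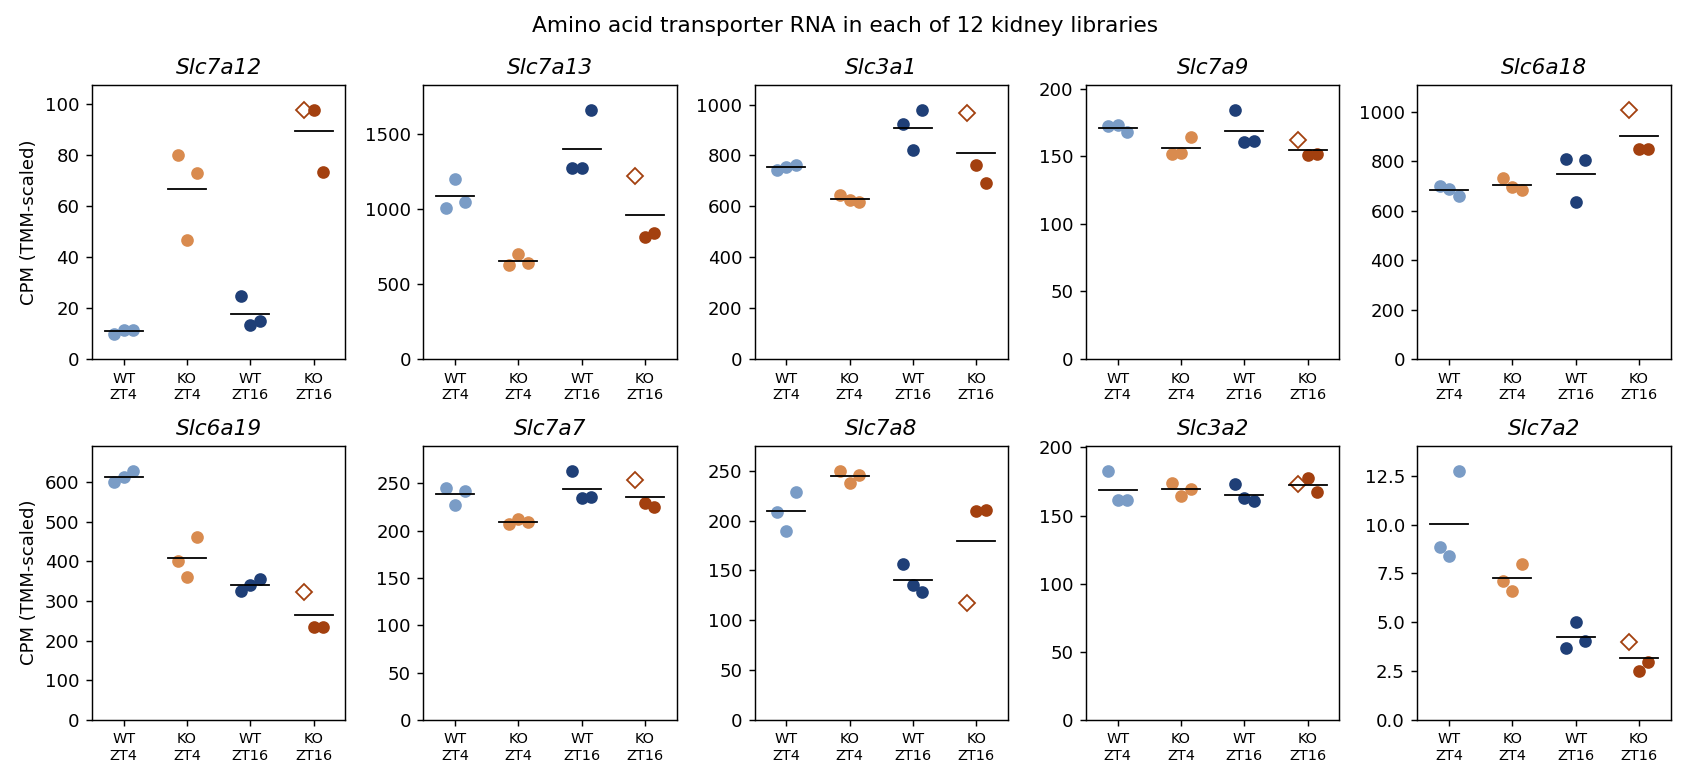
CPM of each transporter in every library, with 1 point per library, a bar at the group mean and an open diamond for KO ZT16 replicate 2. Slc7a12 is higher in all 6 knockout libraries, Slc7a13 and Slc6a19 are lower in the 3 KO ZT4 libraries, and the open diamond lies by the wild-type points for Slc7a8, Slc7a13 and Slc6a19.

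On the basolateral side, the heavy chain Slc3a2 (ENSMUSG00000010095, chromosome 19, 8706882 to 8723369, minus strand) stayed between 160.4 and 183 CPM in all 12 libraries. Its log2 fold change was 0.0044 ± 0.075 in the light phase (adjusted p = 0.979) and 0.06 ± 0.07 in the dark phase (adjusted p = 0.740, or 0.660 at a value of 0.05 without KO ZT16 replicate 2). Slc7a7 (ENSMUSG00000000958, chromosome 14, 54369442 to 54417780, minus strand), the light chain lost in lysinuric protein intolerance, measured 245, 228 and 242 CPM in WT ZT4 and 207, 212 and 209.5 CPM in KO ZT4. These did not overlap, but the log2 fold change of -0.19 ± 0.08 did not pass the test (adjusted p = 0.237). At ZT16 Slc7a7 measured 264, 234 and 236 CPM in wild type and 254, 229.7 and 225 CPM in knockout (log2 -0.05 ± 0.08, adjusted p = 0.814), and without KO ZT16 replicate 2 the log2 value was -0.12 (adjusted p = 0.240). It shares 232 exonic bases (6.998%) with Oxa1l on the opposite strand. Over both times and without KO ZT16 replicate 2 it fell by 0.15 ± 0.05 (adjusted p = 0.0226).

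Slc7a8 (ENSMUSG00000022180, chromosome 14, 54722209 to 54781946, minus strand), the light chain for large neutral amino acids, was the transporter for which KO ZT16 replicate 2 lay farthest from replicates 4 and 6 on the log2 scale. It measured 209, 190.1 and 229 CPM in WT ZT4 and 250.3, 238 and 246 CPM in KO ZT4. At ZT16 wild type had 157, 135 and 128 CPM, knockout replicates 4 and 6 had 209.8 and 211 CPM, and replicate 2 had 118 CPM, below every wild-type library. The log2 fold change at ZT16 was 0.36 ± 0.18 (adjusted p = 0.358) with that library and 0.58 ± 0.09 (adjusted p = 0.000847) without it. At ZT4 it was 0.23 ± 0.18 (adjusted p = 0.504), and over both times 0.29 ± 0.13 (adjusted p = 0.154), or 0.40 ± 0.06 (adjusted p = 0.000296) without the library. Per length, the ratio of Slc7a8 to its fellow light chain Slc7a7 was 0.581 ± 0.0398 in WT ZT4 and 0.774 ± 0.0296 in KO ZT4 (SD, n = 3), without overlap. At ZT16 it ran from 0.360 to 0.394 in wild type and from 0.306 to 0.621 in knockout, so the groups overlapped, and the lowest value is that of replicate 2.

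Slc7a2 (ENSMUSG00000031596, chromosome 8, 40862396 to 40922308, plus strand) rested on 82 to 417 counts per library. It measured 8.87, 8.42 and 12.8 CPM in WT ZT4 and 7.13, 6.61 and 8.00 CPM in KO ZT4. At ZT16 it measured 3.68, 4.99 and 4.02 CPM in wild type and 4.002, 2.50 and 2.97 CPM in knockout. The groups did not overlap at ZT4, but log2 fold changes of -0.47 ± 0.19 in the light phase (adjusted p = 0.225) and -0.43 ± 0.21 in the dark phase (adjusted p = 0.344) did not pass the test. Without KO ZT16 replicate 2 the ZT16 value was -0.66 ± 0.21 (adjusted p = 0.0303). Over both times the log2 fold change of Slc7a2 was -0.45 ± 0.14 (adjusted p = 0.0625). It was called in 3 of 20 alternatives. These were the fit without KO ZT16 replicate 2 (-0.57 ± 0.13, adjusted p = 0.00395), DESeq2 (adjusted p = 0.0232) and length and GC offsets (adjusted p = 0.0317). In all, 8 of the 10 genes had no overlap between genotypes at ZT4, where 37.7% of all tested genes had none, and 4 had none at ZT16, where 15.9% had none.

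Between the times, Slc7a2 and Slc6a19 were lower in the dark phase in both genotypes. In wild type 2 of the 10 genes were called lower at ZT16 and none higher, where 6.5% of tested genes were called (2.87% higher, 3.63% lower). In knockout 2 were called lower and 1 higher, where 10.5% were called (5.27% higher, 5.2% lower). Slc7a2 fell by 1.24 ± 0.20 on the log2 scale, or 2.36-fold, in wild type (adjusted p = 0.00551) and by 1.203 ± 0.21 in knockout (adjusted p = 0.00966), and every ZT16 library lay below every ZT4 library. Slc6a19 fell by 0.85 ± 0.13, or 1.80-fold, in wild type (adjusted p = 0.00391) and by 0.62 ± 0.13 in knockout (adjusted p = 0.0160), with no overlap in either genotype. In wild type both calls held in all 23 alternatives. In knockout, fits of the 6 compared libraries alone gave an adjusted p of 0.0591 for Slc7a2 and 0.102 for Slc6a19, and Slc6a19 also lost its call without KO ZT4 replicate 6 (adjusted p = 0.0733).

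Slc7a13, in contrast, rose toward ZT16 in knockout by a log2 value of 0.55 ± 0.16 (adjusted p = 0.0465), and its value in wild type was 0.37 ± 0.16 (adjusted p = 0.145). Without KO ZT16 replicate 2 the knockout value of Slc7a13 was 0.33 ± 0.11 (adjusted p = 0.0834). With length and GC offsets it was 0.17 (adjusted p = 0.186), and the call held in 8 of 23 alternatives. Slc3a1 and Slc6a18 had values of 0.36 ± 0.11 each in knockout (adjusted p = 0.0588 and 0.0508) and of 0.27 ± 0.11 and 0.13 ± 0.11 in wild type (adjusted p = 0.148 and 0.395). Slc7a8 had -0.58 ± 0.18 in wild type (adjusted p = 0.0704) and -0.45 ± 0.18 in knockout (adjusted p = 0.0999). Slc7a12 had 0.69 ± 0.24 and 0.43 ± 0.23 (adjusted p = 0.0970 and 0.188). Without KO ZT16 replicate 2, 6 genes were called between the times in wild type (33.5% of tested genes called) and 2 in knockout (8.0%), again Slc7a2 and Slc6a19. The added wild-type calls were Slc7a8 at -0.57 (adjusted p = 0.000489), Slc3a1 at 0.27, Slc7a13 at 0.38 and Slc7a12 at 0.70 (adjusted p from 0.0121 to 0.0338). Across all alternatives the wild-type value ran from 0.056 to 0.45 for Slc7a13, with an adjusted p of up to 0.702. For Slc7a12 it ran from 0.20 to 0.87, with an adjusted p of up to 0.736. No overlap between the times was seen for 6 genes in wild type (42.6% of tested genes) and 7 in knockout (43.3%).

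**Figure D4:**
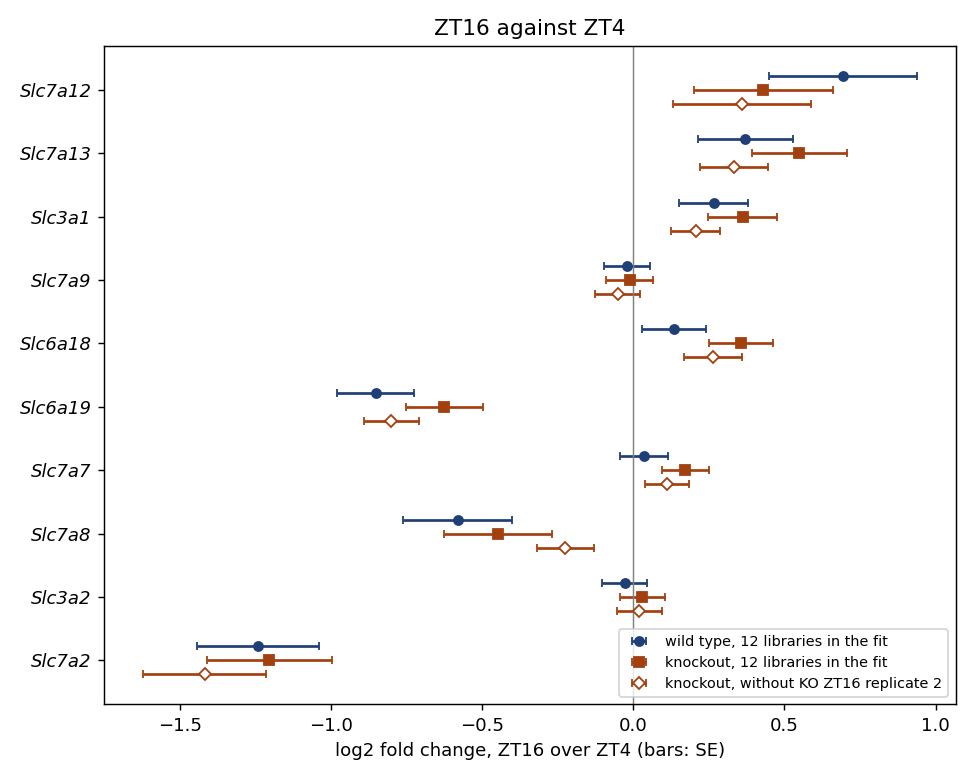
Log2 fold change of ZT16 over ZT4 for each gene, with bars of 1 SE, in wild type and in knockout in a fit of 12 libraries and in knockout without KO ZT16 replicate 2. Slc7a2 and Slc6a19 lie below 0 in all 3 settings, from -1.42 to -0.62.

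Whether the genotype difference itself changed with time was tested by the interaction of genotype and time. None of the 10 genes was called by edgeR, and neither DESeq2 nor limma voom called any. By edgeR 0.0186% of tested genes were called (0.0489% without KO ZT16 replicate 2, again none of the 10). None of the 10 had an unadjusted p under 0.05 by edgeR, and 540 of all 16150 tested genes had. The largest of the 10 interactions in size was that of Slc7a12, at -0.26 ± 0.33 on the log2 scale (adjusted p = 0.9996), followed by Slc6a19 at 0.23 ± 0.18 and Slc6a18 at 0.22 ± 0.15. A call at 1 time and not at the other is therefore not shown to be a difference between the times.

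Genes whose log2 levels over the 12 libraries ran closest to the 3 transporters with the smallest adjusted p over both times were looked up among 11064 candidates by root mean square difference after centring. Arg2, which encodes mitochondrial arginase, was nearest to Slc7a12 at 0.32, followed by Asb11 at 0.42 and Hao2, a peroxisomal hydroxyacid oxidase, at 0.44, where the SD of Slc7a12 itself was 1.30. Nearest to Slc7a13 (SD 0.43) were Ephx2, soluble epoxide hydrolase, at 0.08, the fatty acid receptor gene Cd36 at 0.09 and the carboxylesterase gene Ces2e at 0.11. Nearest to Slc6a19 (SD 0.47) were Slc2a2, the glucose transporter GLUT2 of the basolateral membrane, at 0.22, the histone gene Hist1h1c at 0.23 and the metallothionein gene Mt2 at 0.23. The libraries share the groups and KO ZT16 replicate 2, so likeness here describes these libraries only.

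Among 31 tested genes of 34 other carriers of amino acids, taurine, betaine and small peptides, 3 rose and 1 fell in knockouts at ZT4. At ZT16 1 rose and 2 fell. Of all tested genes 3.29% and 4.03% were called at these times. Slc38a3, the glutamine carrier SNAT3, had 42.0 ± 5.46 CPM (SD, n = 3) in WT ZT4 and rose to 62.7 ± 9.07 in KO ZT4, and had 45.6 ± 6.27 in WT ZT16 and rose to 79.1 ± 3.0 in KO ZT16 (log2 0.58 ± 0.13 and 0.79 ± 0.13, adjusted p = 0.0344 and 0.00433). The betaine carrier Slc6a12 (0.92 ± 0.23) and Slc36a4 (0.35 ± 0.08) rose at ZT4, and Slc38a4, of the same family as SNAT3, fell by 0.80 ± 0.19. At ZT16 the neutral carriers Slc6a15 and Slc38a2 fell by 0.53 ± 0.13 and 0.38 ± 0.09. Over both times 5 rose and 4 fell, where 11.4% of all tested genes were called. Without KO ZT16 replicate 2 the counts were 6 rising and 3 falling at ZT4, where 15.3% of all tested genes were called. They were 9 and 5 at ZT16 (31.2%), and 12 and 4 over both times (42.4%). The median log2 fold change of the list was 0.11 at ZT4 and 0.19 at ZT16, and that of all tested genes was 0.00 and 0.02. In time, 1 of the 31 rose in wild type, Slc6a12 (0.86 ± 0.23), and 4 fell in knockout, among them the taurine carrier Slc6a6 by 0.97 ± 0.17 and the aromatic amino acid carrier Slc16a10 by 0.47 ± 0.10. Of all tested genes 6.5% were called in time in wild type and 10.5% in knockout. The counts in time without KO ZT16 replicate 2 were 4 rising and 10 falling in wild type (33.5%) and 5 falling in knockout (8.0%).

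Of 3 genes for accessory proteins of brush border carriers, none was called in knockouts at ZT4 and 2 fell at ZT16. Of all tested genes 3.29% and 4.03% were called at these times. These were the scaffold genes Pdzk1 and Slc9a3r1, which fell by 0.33 ± 0.08 and 0.27 ± 0.07 (adjusted p = 0.0385 and 0.0483). Both kept these calls without KO ZT16 replicate 2, and Slc9a3r1 also fell at ZT4 (log2 -0.26, adjusted p = 0.0134). Of 10 peptidases, most of them of the brush border, 1 fell at each time and none rose. Without KO ZT16 replicate 2, 2 fell at each time, where 15.3% and 31.2% of all tested genes were called. The gene called with 12 libraries was Ggt1, γ-glutamyltransferase, with 1209 ± 58.3 CPM in WT ZT4, 900.4 ± 30.5 in KO ZT4, 1302 ± 64.2 in WT ZT16 and 1029.9 ± 24.6 in KO ZT16 (SD, n = 3, log2 -0.43 ± 0.08 and -0.34 ± 0.08, adjusted p = 0.00966 and 0.0283).

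Of 16 genes of the cellular response to amino acid shortage, none was called in knockouts at ZT4 (3.29% of all tested genes called) and 1 fell at ZT16 (4.03%), Atf4, the central factor of this response, by 0.42 ± 0.09 (adjusted p = 0.0216). Leaving out KO ZT16 replicate 2 gave 1 rising and 1 falling at ZT4 (15.3%) and 2 rising and 4 falling at ZT16 (31.2%). Between the times 3 rose in wild type (6.5% of all tested genes called), and 5 rose and 1 fell in knockout (10.5%). Ddit3, a target of ATF4, rose by 1.69 ± 0.20 in wild type and 1.23 ± 0.20 in knockout, and Atf4 by 0.64 ± 0.09 and 0.37 ± 0.09. In knockout Psat1, of serine synthesis, rose by 0.59 ± 0.13 and Sesn2, a leucine sensor, fell by 0.70 ± 0.19. With KO ZT16 replicate 2 left out, 6 rose and 1 fell in wild type (33.5%) and 3 rose and none fell in knockout (8.0%). In knockout Psat1 then kept its call (0.50, adjusted p = 0.0227) and Sesn2 lost it (-0.55, adjusted p = 0.0563).

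Several other measures moved with genotype beside these results. The counts of calls below stand beside 3.29% of all tested genes called at ZT4 and 4.03% at ZT16. Without KO ZT16 replicate 2 these shares were 15.3% and 31.2%. Mitochondrially encoded genes took 16.3% to 17.96% of counts in WT ZT4 and 12.6% to 12.8% in KO ZT4. Of 10 tested genes that depend on androgens in mouse kidney, 4 fell and none rose in knockouts at ZT4, and 3 fell and 1 rose at ZT16. Leaving out KO ZT16 replicate 2 gave 6 falling and 1 rising at ZT4, and 7 falling and 1 rising at ZT16. Cyp2e1 (log2 -0.87 and -0.89) and Cyp4b1 (-0.69 and -0.63) fell at both times. The summed level of the list, most of it from Kap, was 37139 to 50553 CPM in WT ZT4 and 28319 to 30067 in KO ZT4. At ZT16 it was 50042 to 80907 in WT and 36597, 37319.7 and 88656 in KO, the highest being replicate 2. Y-linked genes were present in every library and Xist did not exceed 0.192 CPM. Among 6 markers of the last proximal segment, Acy3 fell by 0.54 at ZT4 and Cyp7b1 rose by 0.74 at ZT16, and the summed level was 3751 to 4453 CPM in WT ZT4, 3321 to 3773 in KO ZT4, 3601 to 4448 in WT ZT16 and 3690.3 to 3912 in KO ZT16. Of 7 general proximal markers only Aqp1 was called at ZT4, where it fell by 0.32 (adjusted p = 0.0448). Of 4 markers of the thick ascending limb, Umod fell by 0.55 at ZT4 (adjusted p = 0.0467). The summed level of the 4, most of it from Umod, was 5537 to 6145 CPM in WT ZT4 and 4605 to 4745 in KO ZT4. Slc12a1 went the other way without a call, at 1177 to 1325 CPM in WT ZT4 and 1412 to 1484 in KO ZT4. Cldn16 and Kcnj1 overlapped between the genotypes at ZT4. Among the 6 late-segment markers 2 rose and 1 fell at ZT4 and 3 rose and 1 fell at ZT16 without KO ZT16 replicate 2. Of the general proximal markers 1 fell at ZT4, and 2 rose and 1 fell at ZT16, without that library, and of the 4 thick ascending limb markers 1 rose and 1 fell at ZT4 and 1 fell at ZT16. Of 6 immune cell markers 1 fell at each time, Csf1r of macrophages (log2 -0.33 at both, adjusted p = 0.0419 and 0.0360), and the summed level was 97.8 to 114 CPM in WT ZT4 against 80.9 to 89.0 in KO ZT4 and 93.5 to 105 in WT ZT16 against 76.7 to 87.1 in KO ZT16, with no overlap at either time. Of 5 endothelial markers none was called with 12 libraries, and their summed level did not overlap either, at 335 to 358 against 304 to 323 CPM at ZT4 and 316 to 331 against 287 to 309.9 CPM at ZT16. These markers did not move together, and their median log2 fold change was -0.04 at ZT4 and 0.01 at ZT16. Means of Pecam1 and Emcn were lower in knockout at both times and that of Flt1 was higher at both. Those of Kdr and Cdh5 were slightly lower at ZT4 and higher at ZT16. Of 7 markers of tubular injury 1 fell at each time, Havcr1, which encodes KIM-1 (log2 -1.71 and -1.31, adjusted p = 0.00729 and 0.0357). With the library left out, 2 injury markers fell at ZT4, and 3 fell and 1 rose at ZT16, while the immune count was again 1 at each time. The endothelial counts were then 2 falling at ZT4 and 1 rising and 2 falling at ZT16. In every KO ZT4 library the summed levels of podocyte, distal convoluted tubule and principal cell markers were higher than in every WT ZT4 library. Those of fibroblast and injury markers were lower in the same way, and at ZT16 all these sums overlapped. For the distal convoluted tubule the gap was narrow, between a highest WT ZT4 sum of 645.9 and a lowest KO ZT4 sum of 646.3 CPM. A lack of overlap was common, and among single tested genes 37.7% had none at ZT4 and 15.9% had none at ZT16. Most of the injury sum came from Spp1. Mean Clu (302 CPM in WT ZT4, 355 in KO ZT4) and Sox9 (0.34 and 0.54) rose, and means of the other injury markers fell. Means of Pdgfrb and Col1a1 were also slightly higher in KO ZT4, and that of Aqp3 slightly lower. Kap, Acy3, Aqp1, Umod, Slc12a1, Cldn16, Kcnj1, Csf1r, Pecam1, Emcn, Flt1, Kdr, Cdh5, Havcr1, Spp1, Clu, Sox9, Pdgfrb, Col1a1 and Aqp3 were named after their values had been seen. The part of these measures in the transporter results was not tested.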

How the data were processed

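RNA of whole kidneys was sequenced from TruSeq stranded mRNA libraries, per the labels' protocols. Values are read counts per gene as deposited by the authors. Per the submitters' processing notes these were made with cutadapt 1.2.1, TopHat2 2.0.9 and HTSeq 0.5.4p3 on GRCm38. How reads were assigned to genes, whether by strand, and from which annotation is not given in the sources used here. Gene names came from GENCODE M21, which named 37607 of 38924 identifiers. Reads assigned to no gene were kept out of library sizes (no feature 3.50% to 5.96%, ambiguous 0.411% to 0.534%, not unique 30.8% to 43.0%).

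Genes passing filterByExpr (16150) entered 1 quasi-likelihood fit of the 12 libraries in edgeR 4.0.16 (R 4.3.3) with TMM scaling and no replicate block. P-values were adjusted by Benjamini-Hochberg across these genes and called under 0.05, and SE is that of the fitted log2 fold change. CPM is TMM-scaled. Values of 3 libraries are given in the order of replicates 1, 3 and 5 (wild type) or 2, 4 and 6 (knockout). Alternatives were DESeq2 1.42.0, limma voom (limma 3.58.1), RLE or upper-quartile scaling, a filter at a mean of 5 CPM or none, adjusted p under 0.01, offsets for exon length and GC content, only the 6 libraries compared, a replicate block, each library left out, and, added after seeing the data, no mitochondrially encoded genes. The steps were tested on simulated data, where 32% of 1.5-fold and 75% of 2-fold changes placed in KO ZT4 were called. A missing call is therefore not shown to be a lack of change. The changed genes were drawn at random from those passing the filter, and each gene had the same spread in all 12 libraries. In the data KO ZT16 replicate 2 stood apart from its replicates, so these shares are not those of the transporters.

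The 10 genes and all lists were chosen with earlier results of these data known. Genes named from lists were up to 4 per list and comparison with the smallest adjusted p among those called. In the list of accessory proteins 1 gene is not reported here. Transcripts of the 10 genes were compared with all others (BLAST 2.17.0, at least 90% identity over 300 bases), and only Prepl matched Slc3a1.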

Additional observations from a re-analysis of the deposited data

How the results depend on the processing

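Of the 10 transporters' 6 comparisons each, 1250 alternative values kept their direction and their side of the threshold, 34 lost a call, 35 gained one and 41 changed sign. No called value changed sign. The call of Slc7a12 in knockouts held under every alternative tried at ZT4, at ZT16 and over both times. How many genes were called, and so the adjusted p of each transporter, moved widely. With 12 libraries 531 genes were called in knockouts at ZT4, 651 at ZT16 and 1834 over both times, 1050 between the times in wild type, 1691 in knockout, and 3 for the interaction. DESeq2 called 1044 and 1008 at ZT4 and ZT16, 2149 and 3670 between the times and 18 for the interaction, and length and GC offsets gave 959, 1011, 1709, 2695 and 9. At adjusted p under 0.01 the counts were 207, 309, 736 over both times, 209 and 136. The 6 compared libraries alone gave 2877 at ZT4, 200 at ZT16, 3557 in wild type and 36 in knockout. Leaving out 1 library gave 228 to 2503 at ZT4, 380 to 5099 at ZT16, 1120 to 6935 over both times, 220 to 5473 in wild type, 181 to 3629 in knockout and 3 to 8 for the interaction, where the highest count belongs to KO ZT16 replicate 2 left out except in knockout (KO ZT16 replicate 6).

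Of the 10 transporters, DESeq2 called 2 in knockouts at ZT16, 4 between the times in wild type and 5 in knockout, and length and GC offsets called 2 at ZT16. Adjusted p under 0.01 left 1 at ZT4 and 1 between the times in knockout. The 6 compared libraries alone called 4 in wild type and 0 in knockout, where Slc7a2 and Slc6a19 kept their direction. Leaving out 1 library gave 1 to 4 transporters at ZT4, 1 to 6 at ZT16, 3 to 8 over both times, 2 to 6 in wild type and 1 to 5 in knockout. Without KO ZT4 replicate 2 or 4, or WT ZT4 replicate 1, 3 or 5, Slc7a12 alone was called at ZT4. The cause of these moves was not tested. Leaving out the mitochondrially encoded genes, chosen after seeing the data, gave Slc6a18 a call between the times in knockout (adjusted p = 0.0493).

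Values that changed sign were all uncalled and small. For Slc3a2 they were -0.0096 (DESeq2), -0.00934 (RLE) and -0.025 (length and GC offsets) at ZT4, -0.00060 (offsets) over both times, 0.072 (offsets) and 0.073 (replicate block with offsets) in wild type, and -0.00016 (upper quartile) in knockout. For Slc7a9 they were 0.0040 (DESeq2) and 0.0038 (RLE) between the times in knockout, and -0.00463 (offsets) and -0.00132 (replicate block with offsets) for the interaction. For Slc7a12 between the times in knockout they were -0.052 (offsets) and -0.077 (replicate block with offsets). With 1 library left out, Slc3a2 ran from -0.027 to 0.070 at ZT4, from -0.0589 to 0.041 in wild type and from -0.016 to 0.088 for the interaction. Slc7a7 ran from -0.12 to 0.0015 at ZT16 and from -0.018 to 0.073 in wild type, and Slc7a9 from -0.084 to 0.022 in wild type and from -0.051 to 0.024 in knockout. The interaction ran from -0.18 to 0.19 for Slc7a2, -0.038 to 0.068 for Slc7a9, -0.47 to 0.050 for Slc7a12, -0.045 to 0.31 for Slc7a13 and -0.067 to 0.19 for Slc3a1.

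Replicate numbers are shared between the times, but deviations of libraries with the same number did not move together (correlation from -0.27 to 0.05). With the replicate block, 229 genes were called between the times in wild type, 189 in knockout and 1 for the interaction, and the calls among the transporters in knockout went from 3 to 1, Slc7a2. The lost calls are Slc7a13 (0.53, adjusted p = 0.0996) and Slc6a19 (-0.63, adjusted p = 0.0537). Counts of 82 to 417 per library limit Slc7a2, and 3 libraries a group limit all results.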
